A study of Mus musculus with 14 samples.

Results

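The genes described here encode the signalling chains of the B cell receptor, its coreceptors and the factors that switch them on: Cd79a, Cd79b, Ms4a1, Cd22, Pax5, Cr2, Fcer2a, Ebf1 and Blnk. They were taken by name, 9 of the 49583 genes in the table, and compared over the 7 sorted mouse cell populations of the study. The study sequenced RNA of Ter cells, named after the red cell antigen Ter-119, and of cells set beside them, in C57BL/6 wild type mice. There were 14 samples, 2 in each group, each sorted to a stated purity above 98%. Spleen Ter cells (Ter-119+CD45-Lin-) and their control (CD45+Ter-119- spleen cells, below called the CD45+ control) both came from tumour-bearing mice; the labels do not say which tumour. Liver Ter cells came from E14.5 embryonic livers through the Ter gate of the spleen. Bone marrow gave 4 groups: hematopoietic stem cells (HSC, c-Kit+Sca-1+Lin-), common lymphoid progenitors (CLP, the same with IL-7R+), and cells labelled megakaryocyte-erythroid progenitors (MEP, Sca-1- and CD34+) and common myeloid progenitors (CMP, Sca-1- and CD34-), both c-Kit+, FcγRlo, Lin- and IL-7R-. The labels do not say whether each pair of samples stems from different animals, so p-values measure only the spread between these samples, which may be technical.

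The B cell receptor is a membrane antibody that cannot signal by itself. It pairs with CD79A and CD79B, whose tails carry the tyrosine motifs that recruit the kinase SYK, and SYK phosphorylates the adaptor BLNK, which brings in BTK and phospholipase C gamma. CD22 dampens this signal, CR2 (CD21) strengthens it when complement is bound to the antigen, and EBF1 and PAX5 are the factors that turn on the B cell programme in marrow precursors.

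Levels are in FPKM, fragments per kilobase of exon scaled to library size, and the table holds the authors' mean of the 2 samples of each group. In 4 columns (both Ter groups, MEP and CMP) the digits of a mean gave back its 2 libraries, here named A, with more fragments, and B; their depth was 13413530.5 to 28537889 fragments. All 9 genes were recovered in all 8 libraries. The CD45+ control, HSC and CLP columns were made in another way and allow no recovery, so their values have no error, and comparisons with them have no test. The labels of 2 marrow groups go against the data. Cd34, a surface antigen of early progenitors, was 0.0694 FPKM in the column labelled MEP, whose gate is given as CD34+, and 29.7 in the column labelled CMP, given as CD34-. The column labelled MEP held Klf1 and Gata1, which define erythroid progenitors, at 1.26 and 0.928 FPKM, and the neutrophil alarmin S100a9 at 84794. These groups are therefore named by their labels below (MEP-labelled, CMP-labelled). HSC and CLP shared high Dntt, the enzyme that adds bases at antigen receptor joints (416 and 773 FPKM). Cd34, Klf1 and Gata1 were picked for this check after their values were seen.

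In spleen Ter cells, whose gate leaves out CD45+ cells, 8 of the 9 genes had means from 16.9 to 590 FPKM, and Pax5 had 5.28. Liver Ter cells taken through the same gate had under 1 FPKM of each of the 9. Marrow HSC and CLP held the signalling chains, Blnk, Ebf1 and Pax5, but little of the 4 genes of mature B cell surfaces, Ms4a1, Cd22, Cr2 and Fcer2a. The 2 remaining marrow groups held low levels.

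Promoters were searched for letters that factors of the B lineage are known to bind, since the 9 genes shared much of their pattern. RefSeq windows from 250 bases before to 50 after the gene's start (GRCm38.p6) were at hand for 7 of the 9 genes, in 10 windows. For the EBF family only 1 exact form of the site was searched for, TCCC and GGGA parted by any 2 bases, on either strand. It was in 1 of these 10 windows, that of Cd22, and in 0.904% of all 32851 windows. EBF sites with other letters were not searched for, and the remaining windows may hold them. The octamer ATGCAAAT, read by POU factors, was likewise in 1 of 10, that of Blnk, and in 1.74% of all windows. The motifs share no bases. The stretches that hold the matches are given 5′ to 3′ with the match in capitals. The Cd22 stretch is chr7:30879029-30879176 on the minus strand, just before the RefSeq start, and its match begins 49 bases before that start. The stretch lies within the span that GENCODE M21 gives the gene (chr7:30865402-30880342) but outside its exons. The Blnk stretch is chr19:40994333-40994362, minus strand, which lies in an exon of a longer GENCODE transcript, and its match is the reverse complement of the octamer, 130 bases before the RefSeq start.
Cd22: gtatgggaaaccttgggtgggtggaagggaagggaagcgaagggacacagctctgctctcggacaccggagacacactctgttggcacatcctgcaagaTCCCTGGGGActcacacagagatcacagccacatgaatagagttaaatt
Blnk: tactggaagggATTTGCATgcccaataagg
A match describes the letters and not binding, and the other windows say only that these letters are not in them.

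**Figure D1:**
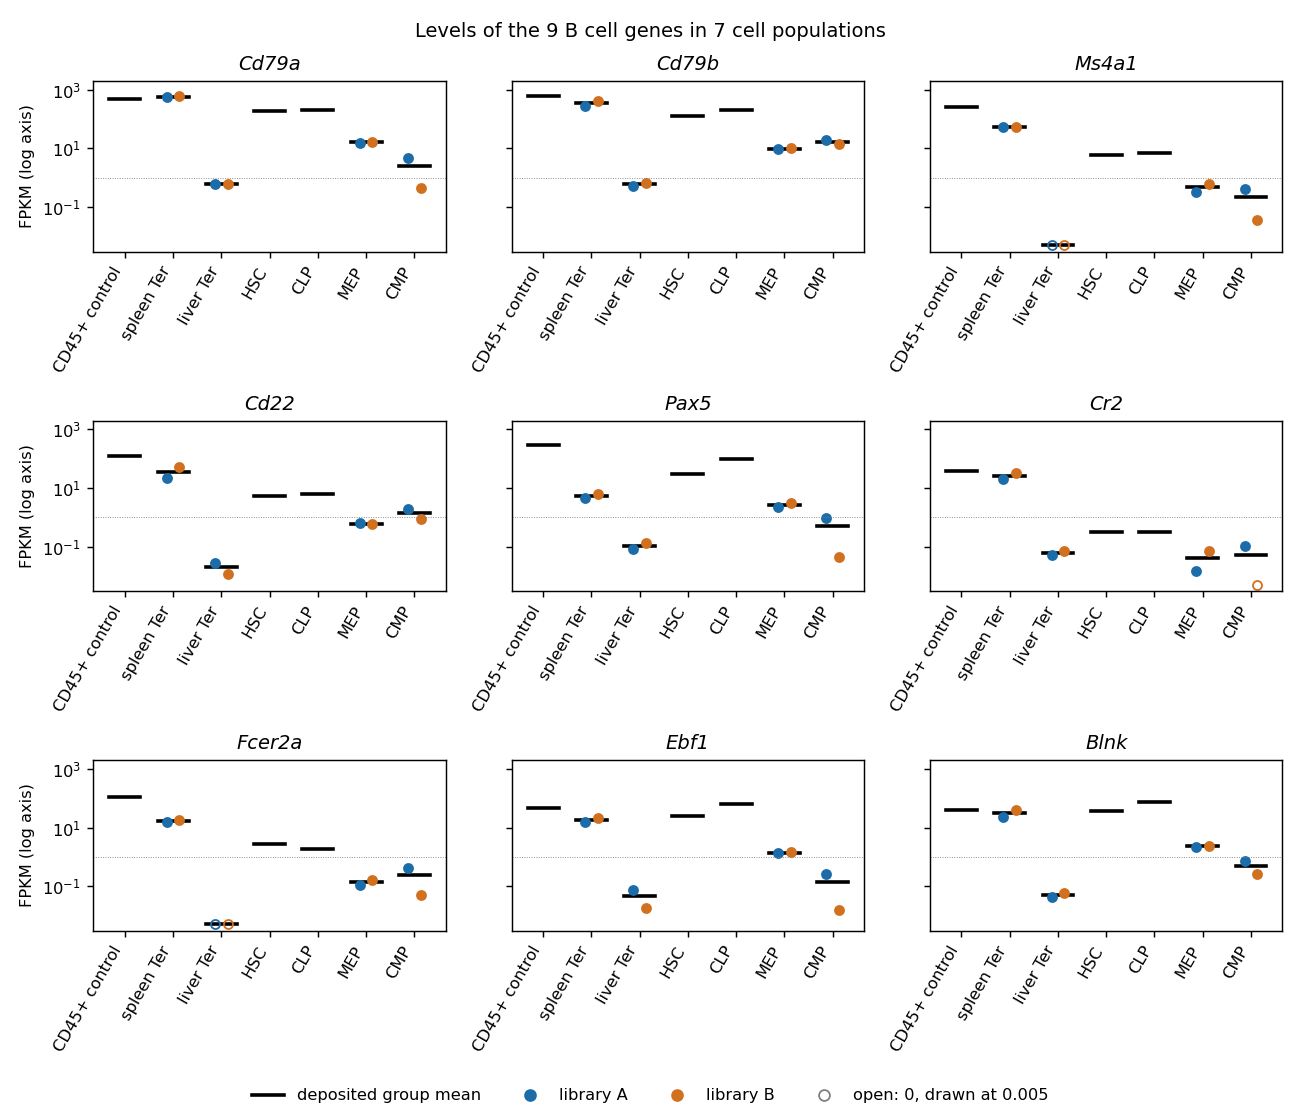
Levels of the 9 genes in FPKM on a log axis, 1 panel per gene, with the 7 populations along the horizontal axis; black bars are the deposited group means, and points are the 2 recovered libraries, with a 0 drawn open at 0.005. The spleen Ter libraries lie far above the liver Ter libraries in each panel, and at CMP library B lies below library A in each panel.

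The signalling chains were the most abundant of the 9 in spleen Ter cells. Cd79a (ENSMUSG00000003379, mm10 chr7:24897381-24902197, plus strand) was at 555 and 626 FPKM in the 2 spleen Ter libraries, and at 0.601 and 0.587 in liver Ter (25 and 15 fragments). In the MEP-labelled libraries Cd79a was at 15.9 and 17.2, and in the CMP-labelled ones at 4.55 and 0.461. The means were 590 in spleen Ter, 502 in the CD45+ control, 212 in CLP and 194 in HSC. The order of the first pair crosses the 2 column formats and cannot be read as a ranking. Cd79a has 1457 bp of exons. Over protein-coding genes with under 2000 bp, the median log2 ratio of spleen Ter to the control was 0.51, above that of Cd79a. Cd79b (ENSMUSG00000040592, chr11:106311341-106314762, minus strand) was at 291 and 427 FPKM in spleen Ter and at 0.514 and 0.677 in liver Ter. Its highest mean was in the CD45+ control, 632, above the spleen Ter mean of 359 and above both of its libraries, with CLP at 204 and HSC at 124. The 2 chains form 1 dimer, but their transcripts were not in 1 ratio. Cd79a over Cd79b was 0.795 in the CD45+ control, 1.04 in CLP, 1.56 in HSC and 1.65 in spleen Ter (1.91 and 1.47 in its libraries).

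Blnk (ENSMUSG00000061132, chr19:40928927-40994535, minus strand), the adaptor, had the flattest profile among the 4 highest groups. Its mean was highest in CLP, 74.0 FPKM, then 39.3 in the CD45+ control, 37.4 in HSC and 31.2 in spleen Ter. The spleen Ter libraries were at 23.6 and 38.8, a span that holds the HSC mean and stops just short of that of the control. The spleen Ter column differs in format from those of CLP, the control and HSC. How far this enters the profile of Blnk was not tested. In liver Ter the gene was at 0.0409 and 0.0571 FPKM, 7 and 6 fragments.

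Among the coreceptors and surface genes the deposited mean was highest in the CD45+ control for each of the 4 and second in spleen Ter, an order that, as for Cd79b, also crosses the column formats. Cd22 (ENSMUSG00000030577, chr7:30865402-30880342, minus strand), the inhibitory coreceptor that binds sialic acid, had a mean of 121 FPKM in the control and was at 21.7 and 50.2 in the spleen Ter libraries. Cr2 (ENSMUSG00000026616, chr1:195136811-195176716, minus strand), the complement receptor, was at 38.8 in the control and at 20.2 and 31.9 in spleen Ter. HSC and CLP were far lower for Cr2, at 0.318 in HSC and 0.310 in CLP. Fcer2a (ENSMUSG00000005540, chr8:3681737-3694175, minus strand), the low-affinity IgE receptor CD23, was at 111 in the control and at 15.8 and 18.1 in spleen Ter. Ms4a1 (ENSMUSG00000024673, chr19:11249675-11266241, minus strand), which encodes CD20, was at 267 in the control and at 53.2 and 55.3 in spleen Ter. For all 4 genes both spleen Ter libraries lay below the control's mean. No fragment of Ms4a1 or Fcer2a was found in either liver Ter library.

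The 2 factors differed from each other in spleen Ter cells. Ebf1 (ENSMUSG00000057098, chr11:44617317-45008091, plus strand) was at 14.9 and 20.9 FPKM there, against means of 64.5 in CLP, 47.2 in the CD45+ control and 24.6 in HSC. Pax5 (ENSMUSG00000014030, chr4:44524757-44710487, minus strand) was at 4.52 and 6.03 in spleen Ter. The columns of the other format gave 299 in the control, 97.9 in CLP and 29.9 in HSC. How far the format enters the Pax5 gap was not tested; its exons span 8853 bp, and long genes as a class were lower in spleen Ter than in the control. In MEP-labelled cells Pax5 was at 2.30 and 3.04, closer to spleen Ter than any other of the 9 genes was.

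Spleen Ter cells against liver Ter cells compares the same gate in 2 organs and stages. The spleen cells also came from tumour-bearing mice and the liver cells from embryos, so organ, stage and tumour cannot be told apart. All 9 genes were called higher in spleen Ter. In the background, 42.9% of the 12808 genes tested were called higher (limma, adjusted p under 0.05 and at least 2-fold) and 11.8% lower. The change was largest for Cd79a, with a log2 fold change of 8.53 ± 0.55 (SE) and an adjusted p of 2.9e-05 by limma. It was smallest for Pax5, at 2.50 ± 0.31 with a limma adjusted p of 0.00045. In between, the log2 fold change was 7.79 ± 0.23 for Cd79b, 5.79 ± 0.21 for Ms4a1, 5.06 ± 0.39 for Cd22 and 4.90 ± 0.28 for Blnk. It was 4.64 ± 0.23 for Cr2, 4.16 ± 0.19 for Fcer2a and 4.16 ± 0.21 for Ebf1. These are on the log2(FPKM + 1) scale, which understates changes of low genes. The median over the 9 was 4.90, beside 0.79 over all genes tested. As plain ratios of means the 9 ran from 50.8-fold (Pax5) to at least 2432-fold higher (Ms4a1), with a median of 602, where the 2 genes at 0 in liver Ter were set to 3 fragments in each library, a limit that covers counting error only. In bulk RNA, more cells of a type and more RNA per cell cannot be told apart.

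Other genes of the pathway, from lists chosen with earlier results known, were counted in the same comparison. Of the proximal signalling genes 19 of 19 tested were called higher (median log2 fold change 3.64); Plcg2, the phospholipase that BLNK recruits, had means of 20.2 and 1.41 FPKM, and Grb2, an adaptor of many receptors, 46.1 and 12.5. Of the inhibitors of the receptor, 8 of 8 tested were called higher, with Ptpn6 (the phosphatase SHP-1) at 108 and 1.40 FPKM. Antibody constant genes were called higher in 9 of 9 tested cases, and Igkc, the kappa light chain, not recovered per library, had means of 15979 and 0.750. Of the other B lineage factors 9 of 12 were called, with Pou2af1, a coactivator of octamer factors, at 61.6 and 0.150 FPKM. Genes of the pre-B cell receptor and recombination stood apart: 3 of 8 tested were called higher, none lower, with a median of 0.43. Their enzyme Dntt had a mean of 1.01 FPKM in spleen Ter.

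Markers of several other cell types moved with the B cell genes in spleen Ter, but not all did. Erythroid markers were called lower than in liver Ter in 3 of 3 tested. Megakaryocyte and platelet markers were called higher in 2 of 7 tested, where 42.9% of all genes tested were. T cell markers were called higher than in liver Ter in 12 of 12 cases, summed to 783 and 929 FPKM in the 2 spleen Ter libraries, 2.83 and 3.07 in liver Ter, and 1038 in the CD45+ control, with 6 of 12 listed at 0 in liver Ter. Among them Trac, the T cell receptor alpha constant gene, had a mean of 227 FPKM in the spleen Ter column, against 248 in control cells, and was listed at 0 in liver Ter. Macrophage and monocyte markers, called higher in 10 of 10 tested, summed to 341 and 1302 FPKM in spleen Ter, and 21.4 and 20.8 in liver Ter. NK cell markers were called higher in 8 of 8, and plasma cell markers in 7 of 7. Follicular dendritic and stromal markers, listed because follicular dendritic cells also carry CR2, summed over 10 genes to 9.03 FPKM in spleen Ter, where Cxcl13 was at 4.51 and Clu at 4.14, and to 0.256 in the control, where Cxcl13 was at 0. The part of these cells in the B cell gene levels was not tested.

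**Figure D2:**
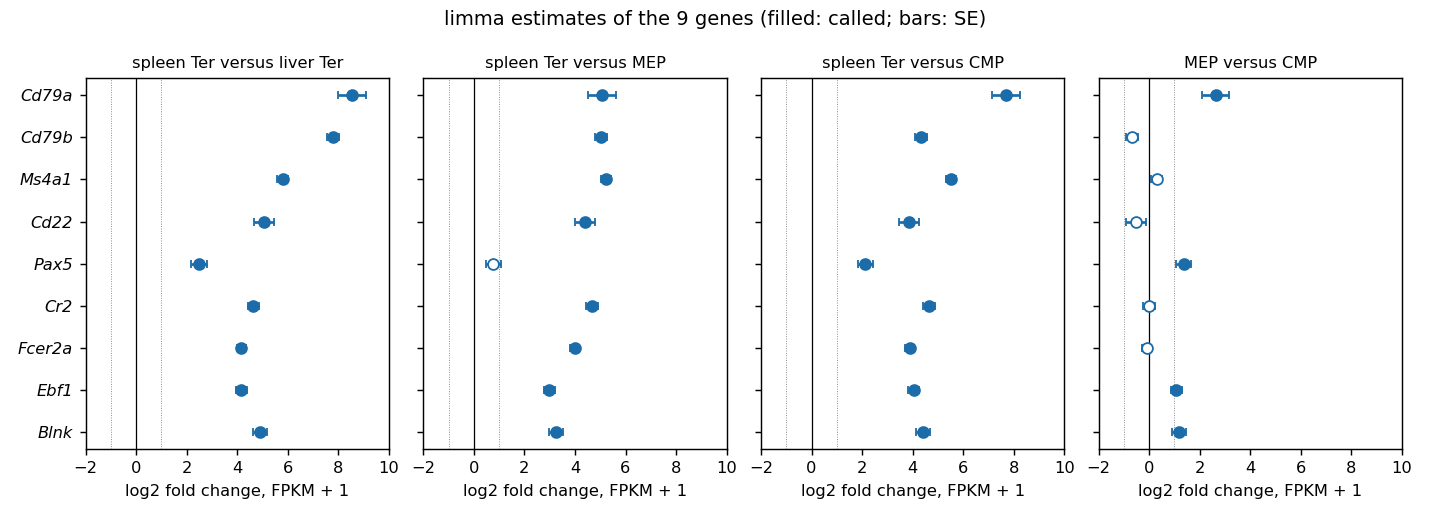
Log2 fold changes of the 9 genes on the FPKM + 1 scale (horizontal axis) in the 4 comparisons tested with limma; bars are standard errors, and filled points passed an adjusted p under 0.05 with at least 2-fold change. All 9 points are filled against liver Ter and CMP, Pax5 is open against MEP, and 4 of 9 are filled in MEP against CMP.

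Against the MEP-labelled cells, 8 of the 9 genes were called higher in spleen Ter, where 23.3% of all genes tested were. Pax5 was not called, with a log2 fold change of 0.77 ± 0.31 and a limma adjusted p of 0.070. The largest differences were those of Ms4a1 (5.23 ± 0.21), Cd79a (5.07 ± 0.55) and Cd79b (5.02 ± 0.23). Cr2 (4.67 ± 0.23), Cd22 (4.41 ± 0.39) and Fcer2a (3.98 ± 0.19) followed, then Blnk (3.25 ± 0.28) and Ebf1 (2.98 ± 0.21). The median was 4.41, against 0.09 over all genes. Of the pathway, 7 of 19 proximal signalling genes were called higher and 3 lower, and 4 of 8 inhibitors higher and 1 lower, where 19.6% of all genes tested were lower. The phosphatase gene Ptpn6 had means of 108 FPKM in spleen Ter and 139 in MEP-labelled cells, and Plcg2 had 20.2 and 88.3. Mature B cell surface genes were called higher in 11 of 12 tested. Cd74 and Cd24a of this list were not recovered per library and so were not tested. Cd74, the chaperone of MHC class II, had means of 4860 FPKM in spleen Ter and 43.6 in MEP-labelled cells. Cd24a went the other way, with means of 139 FPKM in spleen Ter and 267 in MEP-labelled cells. Pre-B cell genes went both ways, with 3 of 8 called higher and 5 lower.

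Against the CMP-labelled cells all 9 genes were called higher in spleen Ter, where 14.1% of all genes tested were and 28.4% were called lower. Cd79a led, at a log2 fold change of 7.70 ± 0.55, and Pax5 was again the smallest at 2.13 ± 0.31 with a limma adjusted p of 0.0013. The other 7 lay between 3.87 ± 0.39 (Cd22) and 5.52 ± 0.21 (Ms4a1). The median of the 9 was 4.33, beside -0.41 over all genes. Of the proximal signalling genes 9 of 19 were called higher and 3 lower, of the inhibitors 3 of 8 higher and 1 lower, and of the mature surface genes 9 of 12 higher. The 3 comparisons of spleen Ter share its 2 libraries, so they are not separate evidence.

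Between the 2 libraries of spleen Ter, each of the 9 genes was higher in B, by 1.04-fold for Ms4a1 to 2.31-fold for Cd22, with a median of 1.40. Of all genes tested, 71.4% were higher in B, so the shared direction is near what most genes did. The 9 genes summed to 1000.01 FPKM in A and 1274 in B. The same libraries differed more in macrophage markers than in T cell markers, as the sums above show.

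**Figure D3:**
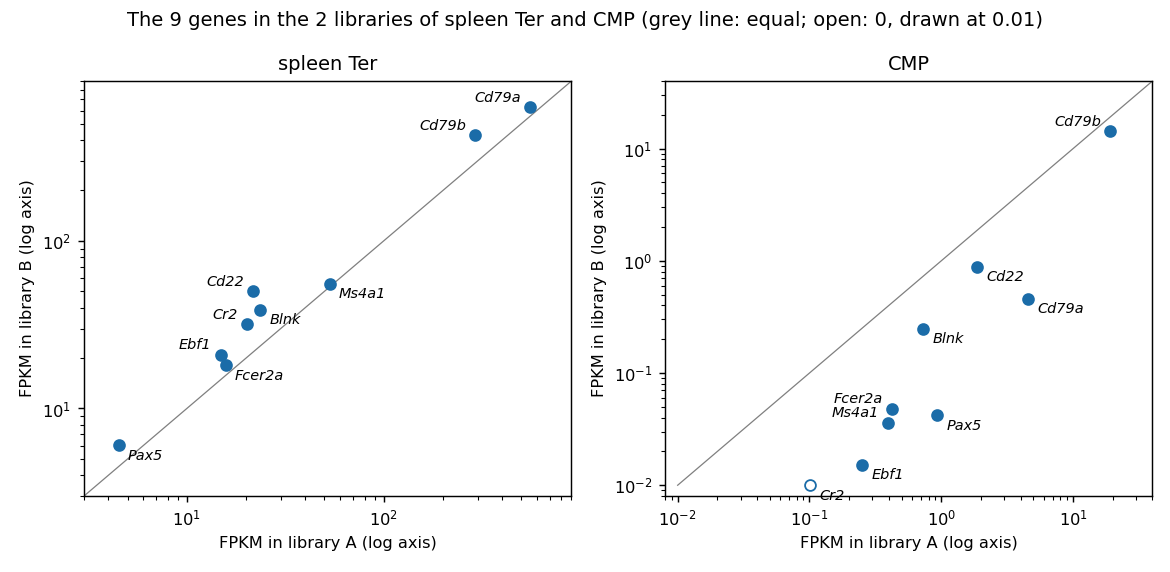
FPKM of the 9 genes in library A (horizontal, log axis) and library B (vertical, log axis) of spleen Ter and of CMP; the grey line marks equal values, and Cr2, at 0 in CMP library B, is drawn open at 0.01. The spleen Ter points lie on or above the line, and the CMP points lie below it.

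In the MEP-labelled against the CMP-labelled cells, 4 of the 9 genes were called higher, Cd79a, Pax5, Blnk and Ebf1. Of all genes tested 7.38% were called higher and 24.4% lower. The log2 fold change was 2.62 ± 0.55 for Cd79a (limma adjusted p 0.0083), 1.36 ± 0.31 for Pax5 (0.012), 1.17 ± 0.28 for Blnk (0.014) and 1.07 ± 0.21 for Ebf1 (0.0068). Cd79b lay the other way, at -0.69 ± 0.23 with a limma adjusted p of 0.047, under the 2-fold needed for a call. Ms4a1 (0.29 ± 0.21), Cd22 (-0.54 ± 0.39), Fcer2a (-0.11 ± 0.19) and Cr2 (-0.01 ± 0.23) were not called, and Cr2 turned slightly positive under median-of-ratios scaling (0.015) and quantile normalization (0.014). These calls did not all hold when 1 library was left out, a fit that leaves 1 library in a group. The MEP-labelled libraries A and B were near each other: Cd79a 15.9 and 17.2 FPKM, Pax5 2.30 and 3.04, Blnk 2.18 and 2.43, Ebf1 1.32 and 1.41. The CMP-labelled libraries were unlike, as given below. Whether a lost call came from the values of a library or from the smaller group was not tested.

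The CMP-labelled libraries were unlike in these genes. Library A was the higher for all 9, where 56.5% of all genes were, with Cd79a at 4.55 against 0.461 FPKM (97 and 9 fragments) and Pax5 at 0.934 against 0.0421 (121 and 5 fragments). Blnk was at 0.730 and 0.249 FPKM, and Cr2 had 12 fragments in A and none in B. Cd79b was the exception in size: it stayed at 19.2 and 14.2 FPKM, 402 and 273 fragments. The ratio of Cd79a to Cd79b was thus 0.237 in A and 0.0324 in B, while in the MEP-labelled libraries it was 1.66 and 1.69. In library B Cd79b stood well above the other 8 genes, of which Cd22 came next with 0.887 FPKM. Among pre-B cell genes, 5 of 8 were called higher in MEP-labelled than in CMP-labelled cells and 1 lower, with Dntt at means of 12.9 and 6.25 FPKM and Vpreb3, a partner of the pre-B cell receptor chains, at 12.3 and 1.71. Neutrophil markers were called higher in 3 of 3 tested and summed to 176106 and 7399 FPKM over all 11 in the 2 columns. Elane and Mpo of this list, not recovered per library and named after their values were seen, went the other way. Their means were 762 and 219 FPKM in MEP-labelled cells, and 2673 and 1753 in CMP-labelled cells. The part of neutrophil genes in the difference was not tested.

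The columns of the CD45+ control, HSC and CLP have the same format and can be set side by side, with no error and no test. All 3 held transcripts of markers of several cell types, and whether the cells were mixed was not tested. From CLP to the control, the means of 7 of 9 genes were 2-fold or more higher in the control, where 11.1% of the 14063 genes with at least 1 FPKM in either group did. The 4 surface genes differed most: Cr2 was 125-fold higher, Fcer2a 59.8-fold, Ms4a1 37.3-fold and Cd22 19.2-fold. Cd79b, Pax5 and Cd79a were 3.10-, 3.06- and 2.37-fold higher. Blnk and Ebf1 had the lower mean in the control, 0.532 and 0.731 of that in CLP. Against HSC, 7 of 9 were again at least 2-fold higher in the control (10.5% of all genes), with Blnk at 1.05-fold and Ebf1 at 1.92-fold. The 4 surface genes made up 26.1% of the summed FPKM of the 9 in control cells, but 3.34% in HSC and 2.34% in CLP. In spleen Ter, whose column has the other format, that share was 11.7%. How far format and exon length enter this value was not tested.

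Between CLP and HSC, Pax5 (3.27-fold) and Ebf1 (2.62-fold) were at least 2-fold higher in CLP, 2 of 9 beside 2.45% of all genes, and 0 of 9 were at least 2-fold lower (3.09%). Blnk was 1.98-fold and Cd79b 1.65-fold higher in CLP, Cd79a was 1.10-fold, and Fcer2a had 0.705 of the HSC level. Pre-B cell genes were high in both, summed to 963 FPKM in HSC and 1752 in CLP, against 97.4 in the control and 79.7 in spleen Ter. Neutrophil markers, which neither gate is meant to hold, summed to 11981 and 15700 FPKM in HSC and CLP, and 827 in the control.

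**Figure D4:**
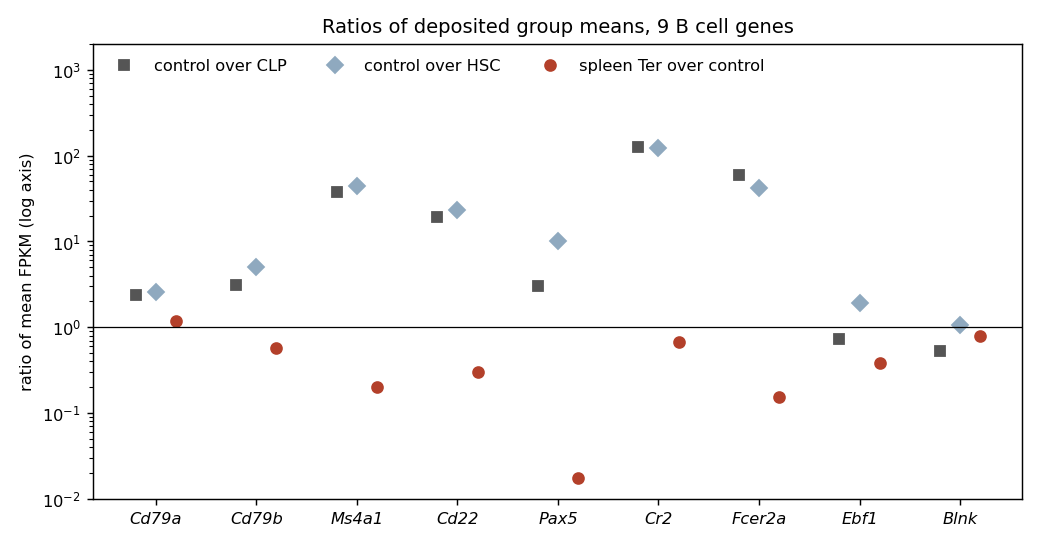
Ratios of mean FPKM on a log axis for the 9 genes: the CD45+ control over CLP (squares), the control over HSC (diamonds) and spleen Ter over the control (circles), with no error available. Ms4a1, Cd22, Cr2 and Fcer2a stand highest in the control over both marrow groups, and Pax5 is the lowest circle, at 0.0176.

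Spleen Ter against its own spleen control, whose columns were made in different ways, had 0 of 9 genes higher by 2-fold or more and 5 lower by as much, where 13.5% and 28.4% of all genes were. Pax5 was 56.7-fold lower, Fcer2a 6.57-fold, Ms4a1 4.92-fold, Cd22 3.36-fold and Ebf1 2.64-fold. Cd79a (1.17-fold higher), Blnk, Cr2 and Cd79b stayed within 2-fold. The median log2 ratio, with 1 FPKM added, was -1.35, beside -0.32 over all genes. The difference between columns moved with exon length, in a split chosen after the data were seen. Over protein-coding genes the median was 0.51 under 2000 bp, -0.13 from 2000 to 5000 bp and -0.53 at 5000 bp or more. Of the 9 genes 6 are in the longest class, with a median of -1.54, and Cd79a and Cd79b are in the shortest. Beside this, 6 of 11 antibody constant genes were 2-fold or more above the control, with Igkc at 15979 against 4381 FPKM, and 1 was lower by as much. Erythroid markers summed to 51782 FPKM, against 237 in the control. Neutrophil markers summed to 24704 and 827.

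The profiles of the 9 genes over the 7 groups, each as log2(FPKM + 1), were compared in pairs. Pearson's r was 0.992 for Ms4a1 and Cd22 and 0.987 for Ms4a1 and Fcer2a, and 0.991 for Ebf1 and Blnk. It was lowest for Pax5 and Cr2, at 0.487, and for Cr2 and Blnk, at 0.508. Cd79a was closest to Blnk (0.955) and Cd79b (0.954). The 7 points share the deposited columns and their 2 formats, so these values are a description. Among 8814 protein-coding genes the profiles most like the mean of the 9 were those of Blk, a B cell kinase of the SRC family (0.996), and Irf4, a factor of B cell activation (0.994). Hivep2, Ifi208, Maml2, Tnfrsf13c (the receptor of the survival factor BAFF), Apol7e, Gbp9, Gimap8 and Gbp4 followed, down to 0.988. The single closest gene was H2-Ob for Cd79b, Cpm for Ms4a1, P2ry10 for Cd22, Rfxank for Pax5, Nsg2 for Fcer2a, Abcg3 for Ebf1 and Slamf6 for Blnk. For Cr2 it was Cd3e, a chain of the T cell receptor, with r of 0.9997 and means of 24.8 FPKM in the control, 18.0 in spleen Ter and under 0.3 in the other 5 groups.

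The counts of all genes called in each direction depended on scaling, while those of the 9 genes did not move. Of the genes called between spleen Ter and liver Ter, 78.5% were higher in spleen Ter as deposited, 52.8% after median-of-ratios scaling, 47.6% after quantile normalization and 65.4% with totals taken without globin genes, which held 47.6% of the liver Ter total and 13.7% of that of spleen Ter. Against CMP the share was 33.1% as deposited, and 58.6% and 44.0% after the first 2 scalings. For MEP against CMP it was 23.2%, and 60.8% and 49.3%. The median over all genes moved from 0.79 to 0.10 and -0.10 in the first of these comparisons, from -0.41 to 0.06 and -0.16 in the second, and from -0.41 to 0.06 and -0.01 in the third. The 9, 8, 9 and 4 genes called among the 9 were as many under each scaling.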

How the data were processed

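The deposited table holds 1 column per group in FPKM, averaged by the authors over 2 samples; the values themselves gave the unit. The build is mm10, per the submitters' processing notes, while aligner, counter and annotation were "not given in the sources used here". Per the labels' protocols, libraries came from total RNA with a TruSeq kit. Of 49583 genes, 49324 matched GENCODE M21 by ID. Ptprc, Ahsp and Lilrb4a were not analysed here, nor were protein sequences and the promoters of Cd79b and Ms4a1. A gene withheld from this text is not reported here.

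In 4 columns, 90.2% to 92.1% of low values were whole numbers of fragments, against 2.28% to 5.05% in the CD45+ control, HSC and CLP. The shares were not measured alike. For the 4 columns the steps came from fitted depths, and for the others from the 2 commonest low values, with a fixed tolerance. In the 4 columns the 2 libraries of each group were recovered from the mean, for 13682 of 14049 genes (97.4%), a method chosen with earlier results known. Their means match the deposited ones within 3.07e-07, which the method requires. The method was tested on simulated data. The most abundant genes were not recovered, and the recovered ones hold 36.9% to 67.9% of fragments. Library names A and B carry no replicate number.

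limma 3.58.1 (R 4.3.3, trend) was run on log2(FPKM + 1) of 8 libraries, for 12808 genes with at least 1 FPKM in 2 libraries, with 1 shared spread (4 residual and 2.61 prior degrees of freedom). Two-sided p-values were adjusted by Benjamini-Hochberg over all genes tested. A call needs an adjusted p under 0.05 and a 2-fold change. Libraries were also simulated (10021 genes), all from the MEP means, with the same fixed spread for every gene and few genes changed. In them 18% of genes changed 2-fold, 88% changed 4-fold and 100% changed 8-fold were called. Of 172 calls 19 were unchanged genes. The real libraries differ from these settings, so the shares need not hold for the real comparisons. The design planned for values per sample, and for other columns only means are described, over genes with at least 1 FPKM in either group.

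The members and lists were chosen with earlier results of these data known. Named genes are the 9, from each list the 2 with the highest mean over all groups, and the 10 genes most like the 9 (at least 5 FPKM in a group), with the closest to each of 8; others are marked where they appear. The alternatives were the pseudocount, filter, scaling and leaving out 1 library; the filter then kept the genes of the full set.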

Additional observations from a re-analysis of the deposited data

How the results depend on the processing

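No paired analysis was possible because neither the columns nor the recovered libraries carry replicate numbers. The number of the 9 genes called stayed within 1.5 times under each other pseudocount, filter and scaling. Leaving out 1 library, where the lone library is assumed to vary like the other groups, kept 9, 8 and 9 calls for spleen Ter against liver Ter, MEP and CMP, and gave 0 to 4 for MEP against CMP, where 4 were called; the lowest was without MEP library B, and without CMP library B it was 1. Between MEP and CMP, Cr2 (-0.01) reversed to 0.015 under median-of-ratios scaling and 0.014 under quantile normalization, and ran from -0.081 to 0.058 with 1 library left out. Fcer2a (-0.11) ran from -0.33 to 0.11 and reversed without CMP library A; none of these values was called. Of the log2 fold changes of single genes under an alternative, 343 kept direction and side of the threshold, 8 lost the call and 5 reversed.

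The untested medians moved with the scaling, and the cause was not tested. For spleen Ter against the CD45+ control (-1.35) the median was -1.39 for a pseudocount of 0.1, -0.97 and -0.88 for median-of-ratios and quantile scaling, and -1.15 without globin genes. For CLP against HSC (0.23) it was 0.27, 0.21, and 0.24 without globin genes. For the control against CLP (1.63) it was 1.94 and 1.38 after the same scalings and 1.62 without globin genes. Under both these scalings 4 genes, not 5, were at least 2-fold lower in spleen Ter than in the control, and 6, not 7, were higher in the control than in CLP after quantile normalization. With 2 libraries a group and columns of 2 formats, no error can be given for the control, HSC and CLP. Levels in liver Ter and CMP library B rest on few fragments.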

Other observations

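The plasma cell gene Jchain, which joins antibody chains into polymers, had a mean of 289 FPKM in Ter cells of the spleen against 118 in control cells, and Mzb1, a chaperone of antibody secretion, 153 against 122. Over the plasma cell list 3 of 8 genes exceeded the control by 2-fold or more and 0 fell below it by as much, where 13.5% and 28.4% of all genes did, while 0 of the 9 B cell receptor genes were higher. These columns were made in different ways, so the comparison has no test. Over protein-coding genes with under 2000 bp of exons the median log2 ratio of spleen Ter to the control was 0.51. The part of gene length in these counts was not tested.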
